A study of Homo sapiens with 12 samples.

Results

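The genes described here are 10 enzymes that build heparan sulfate: EXTL3, EXTL2, EXT1, EXT2, NDST1, NDST2, GLCE, HS2ST1, HS6ST1 and HS6ST2. They were taken by gene symbol from a table of 50868 genes, and each symbol matched 1 gene of the table. All 10 passed the filter on low counts, which left 16554 genes for testing. The symbols were chosen by function, with the levels and group differences measured in the same libraries already known, so the tests below describe these libraries and are not independent evidence about the list.

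The libraries are RNA-seq of RPMI2650, an epithelial line derived from a human nasal septum tumour and cultured here at an air-liquid interface. There were 3 groups of 4 libraries: control cells, cells given 1 µM perfluorobutanoic acid (PFBA) for 7 days, and cells given 1 µM perfluorohexanoic acid (PFHxA) for 7 days. Both compounds are perfluorinated carboxylic acids, and PFHxA has the longer carbon chain. The labels give no vehicle and no time for the control cells. Whether replicate libraries came from separate cultures is not in the labels either, so p-values measure only the spread between these libraries, which may be technical. Libraries are called a to d within a group, after the letters that the table gives its columns.

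Heparan sulfate is a long sugar chain attached to core proteins such as syndecans, glypicans and perlecan, and airway epithelia carry it at the cell surface and in the basement membrane. EXTL3 starts the chain on a linker made of other sugars, and a complex of EXT1 and EXT2 lengthens it by adding glucuronic acid and N-acetylglucosamine in turn. NDST enzymes then replace acetyl groups by sulfate, GLCE converts glucuronic to iduronic acid, and HS2ST1 and the HS6ST enzymes add further sulfates; the resulting pattern sets which growth factors and other ligands the chain binds.

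The libraries held 16941599 to 21879105 counted reads, and mitochondrial genes took 9.15% to 11.9% of them in control, 11.1% to 11.7% in PFBA and 11.7% to 12.9% in PFHxA libraries. All PFHxA libraries lay above all PFBA libraries in this share, and control d was the lowest of the 12; its part in the results was not tested. Of 12 epithelial markers, 11 had a mean of at least 1 CPM (counts scaled by library size), with keratin 14 under it, and their summed level was 4160 to 4262 CPM in control, 3850 to 4088 in PFBA and 4260 to 4535 in PFHxA libraries. The mesenchymal markers, 6 of 10 of which reached 1 CPM, summed to 706 to 966, 736 to 986 and 734 to 786 CPM in that order. The leukocyte list, with 1 of 6 markers at that level and MS4A1 among those at 0, summed to 1.09 to 2.84 CPM, and the endothelial list, with 1 of 4, to 6.95 to 11.7 CPM. The libraries also differed by the base composition of their transcripts. The slope of log2 level on transcript GC content, in log2 units per 10 percentage points of GC, ran from -0.0661 to -0.0132 in control, from -0.0650 to 0.00417 in PFBA and from 0.0706 to 0.104 in PFHxA libraries. All 4 PFHxA slopes lay above all 8 others, so a shift that follows GC content and a response to PFHxA cannot be told apart between the groups, and values with the trend of each library on GC content and transcript length removed are given beside the results. In such bulk RNA, fewer cells that make a transcript and less of it per cell cannot be told apart.

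The members span a wide range of base composition. By the longest GENCODE transcript, GC content was 37.4% for HS2ST1, 39.0% for GLCE, 43.2% for EXTL2, 43.6% for EXT1, 44.7% for HS6ST2, 48.2% for EXTL3, 48.5% for EXT2, 55.9% for NDST2, 56.6% for NDST1 and 60.9% for HS6ST1. Coding stretches of 3 members with a change called below are printed to show this contrast. EXT1, at 43.6%, also had a called change, higher with PFHxA, and its stretch is not printed. Each is the stretch of 120 bases within 1 exon whose GC content is nearest to that of the whole coding sequence, on GRCh38 with GENCODE 29 exons. Capitals mark G and C. The HS2ST1 stretch lies at chr1:87072993-87073112 on the plus strand, in exon 2 of 7, and holds 51 G or C bases. The HS6ST1 stretch lies at chr2:128318300-128318419 on the minus strand, in exon 1 of 2, and holds 80. The NDST1 stretch lies at chr5:150521255-150521374 on the plus strand, begins with the start codon in exon 2 of 15, and holds 70.
HS2ST1: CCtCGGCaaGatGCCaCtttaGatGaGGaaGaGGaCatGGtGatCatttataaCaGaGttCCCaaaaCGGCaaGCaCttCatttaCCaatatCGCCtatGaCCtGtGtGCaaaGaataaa
HS6ST1: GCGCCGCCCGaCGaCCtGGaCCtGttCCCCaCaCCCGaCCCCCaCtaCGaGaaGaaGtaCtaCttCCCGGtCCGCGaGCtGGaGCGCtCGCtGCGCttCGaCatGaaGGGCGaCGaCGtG
NDST1: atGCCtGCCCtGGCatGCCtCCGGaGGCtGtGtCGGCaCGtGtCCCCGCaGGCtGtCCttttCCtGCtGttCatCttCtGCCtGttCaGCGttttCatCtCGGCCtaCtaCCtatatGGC

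Per kilobase of the longest transcript, the highest of the 10 members was 3.50 times the lowest. As means over the 12 libraries in RPKM (CPM divided by transcript length in kilobases), HS2ST1 had 17.3, EXT2 16.3, EXTL2 14.3, NDST1 10.8, EXT1 9.48, EXTL3 9.27, HS6ST2 7.40, GLCE 7.16, HS6ST1 6.03 and NDST2 4.96. Neighbours in this order overlapped over the 12 libraries in every case. HS2ST1 ranged from 15.8 to 18.7 RPKM and NDST2 from 3.14 to 5.83, so the ends of the order did not overlap. The length used moved levels as well: over the union of all annotated exons EXT2 fell to 10.6 RPKM, below EXTL2 at 11.8, whereas HS2ST1 remained highest at 15.7 and NDST2 lowest at 3.99.

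**Figure D1:**
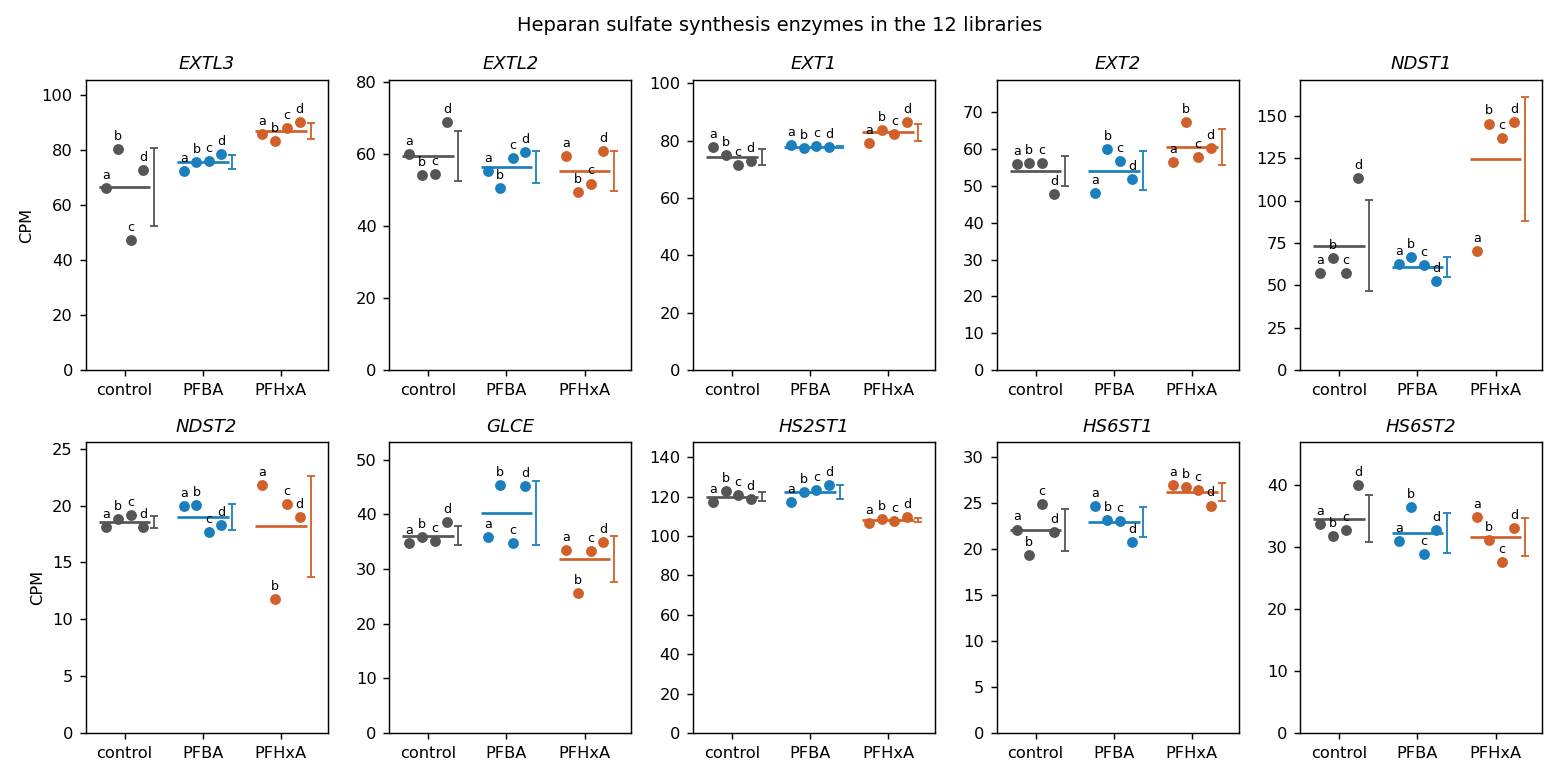
Level of each enzyme in CPM, by group; each point is 1 library with its letter, the horizontal line is the group mean and the bar beside it 1 SD (n = 4), and each vertical axis starts at 0. HS2ST1 is lower in all 4 PFHxA libraries, NDST1 is high in control d and in PFHxA b, c and d, and EXTL3 is low in control c.

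With PFHxA, EXT1 and HS6ST1 rose and HS2ST1 fell against control, all by less than 1.2-fold. NDST1 was 2.05-fold higher with PFHxA than with PFBA, and HS2ST1 was lower. No member passed the test with PFBA against control. Levels below are CPM with TMM-scaled library sizes, fold changes come from edgeR's quasi-likelihood test over all 16554 genes, and a change is called at a Benjamini-Hochberg adjusted p under 0.05. The comparisons share libraries: both acids were set against the same 4 controls. Of all tested genes, 14.9% were called with PFHxA against control and 10.9% with PFHxA against PFBA. With each library's trend on GC content and length removed, 0 of 10 members were called in any comparison. Among 12 fits that left out 1 library, the HS6ST1 call against control held in 2 and the NDST1 call in 4.

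EXTL3 (ENSG00000012232, chr8:28600469-28755599, plus strand, GRCh38) is the enzyme that adds the first N-acetylglucosamine and commits the linker to heparan sulfate. It stood at 66.1, 80.4, 47.3 and 73.0 CPM in control a to d, at 72.4, 75.7, 76.1 and 78.8 CPM in PFBA a to d and at 86.0, 83.5, 88.3 and 90.3 CPM in PFHxA a to d. Control c was far below the other 11 libraries, and every PFHxA library was above every control and PFBA library. The log2 difference of PFHxA from control was 0.38 (95% interval 0.12 to 0.65, adjusted p = 0.0558), which missed the threshold. It became 0.25 (SE 0.0624, adjusted p = 0.0216) without control c, and 0.49 (adjusted p = 0.0174) without control b, the highest control, so the call moved with the control libraries. Of 21 alternative fits, 5 called EXTL3 in this comparison, only 2 of them among the 12 that left out 1 library. After removal of the trend on GC and length the difference was 0.27 (95% interval -0.01 to 0.56, adjusted p = 0.310). The gap between control c and the next library was 0.48 on the log2 scale, and 5.43% of the 10072 genes with a mean of at least 10 CPM had a gap as wide anywhere in their 12 ordered libraries.

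EXTL2 (ENSG00000162694, chr1:100872372-100895998, minus strand), a related transferase that acts on the linker region, had 60.1, 54.1, 54.6 and 68.9 CPM in control a to d. Its levels were 55.3, 50.6, 59.0 and 60.7 CPM with PFBA and 59.5, 49.6, 51.8 and 60.9 CPM with PFHxA. The 3 groups overlapped, and control d was the highest library.

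EXT1 (ENSG00000182197, chr8:117794490-118111853, minus strand) carries the polymerase activity of the EXT complex. It had 77.8, 74.8, 71.6 and 72.8 CPM in control a to d, a narrow 78.4, 77.4, 78.0 and 77.7 CPM in PFBA a to d, and 79.3, 83.6, 82.4 and 86.5 CPM in PFHxA a to d. Every PFHxA library was above every other library. EXT1 rose with PFHxA by 0.16 on the log2 scale (95% interval 0.07 to 0.25, 1.12-fold, adjusted p = 0.0188). The call was lost without PFHxA d (0.14, adjusted p = 0.0601) and was retained in the other 11 fits that left out 1 library. After removal of the trend on GC and length the difference was 0.15, with an adjusted p of 0.0502. EXT1 was the member whose fitted difference lay above 0 against the common direction of genes of low GC content.

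EXT2 (ENSG00000151348, chr11:44095549-44245429, plus strand) is the partner of EXT1 and is needed for a stable complex. In control a to d it had 55.8, 56.3, 56.1 and 47.8 CPM, with control d apart from the other 3. PFBA libraries had 48.1, 59.9, 56.7 and 51.9 CPM, and PFHxA libraries 56.4, 67.4, 57.8 and 60.4 CPM. The lowest PFHxA library was barely above the highest control, 56.4 against 56.3 CPM, and the log2 difference was 0.16 (95% interval -0.01 to 0.33, adjusted p = 0.197). The share of EXT1 in the summed RPKM of the pair was 36.5% ± 1.76 in control, 37.6% ± 2.38 in PFBA and 36.5% ± 1.57 in PFHxA libraries (SD, n = 4), so the groups differed by less than their spread. The height of this share depends on the length used: over the exon union the means were 9.41 RPKM for EXT1 and 10.6 for EXT2.

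NDST1 (ENSG00000070614, chr5:150485818-150558211, plus strand) removes acetyl groups from N-acetylglucosamine and puts sulfate in their place, the step on which later sulfation depends. It fell into a low and a high set of libraries that cut across the groups. Control a to d had 57.4, 66.2, 57.1 and 113.3 CPM, PFBA a to d had 62.5, 66.6, 62.2 and 52.3 CPM, and PFHxA a to d had 70.3, 145.4, 137.0 and 146.4 CPM. Control d lay with PFHxA b, c and d, whereas PFHxA a lay with the PFBA libraries and the other controls. Control d had the lowest mitochondrial share of the 12 libraries, 9.15%, and the lowest slope of log2 level on transcript length, -0.0632 per doubling, and PFHxA a had the lowest mitochondrial share of its group, 11.7%; their part in the NDST1 levels was not tested. The gap between the 8 low and 4 high libraries was 1.61-fold, and 3.05% of the 10072 genes had a gap as wide between any neighbouring libraries. Among those 10072 genes, 26 including NDST1 had their widest gap between these same sets of libraries, and NDST1 alone among the 26 had a gap of at least 0.5 on the log2 scale. The antisense gene NDST1-AS1 had 0 to 2 counts in any library, against 1059 to 2961 for NDST1.

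Against PFBA, NDST1 was higher with PFHxA by 1.03 on the log2 scale (95% interval 0.41 to 1.65, 2.05-fold, adjusted p = 0.0416), and the groups did not overlap, although PFHxA a at 70.3 was close to PFBA b at 66.6 CPM. The call held in 4 of 12 fits that left out 1 library, those without control a, control c, control d or PFHxA a. It was lost without control b, without each PFBA library and without PFHxA b, c or d, with adjusted p-values from 0.0588 to 0.112. Against control, where the groups overlapped, the difference was 0.77 (95% interval 0.15 to 1.38, adjusted p = 0.0967), and it became 1.05 (adjusted p = 0.0228) without control d and 0.96 (adjusted p = 0.0212) without PFHxA a. Once the trend on GC and length was removed, the adjusted p was 0.197 against PFBA (0.92) and 0.348 against control (0.58).

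NDST2 (ENSG00000166507, chr10:73801911-73811798, minus strand), the second enzyme of this kind, was lower and steadier. It had 18.1, 18.8, 19.1 and 18.2 CPM in control a to d, 20.0, 20.0, 17.7 and 18.3 CPM in PFBA a to d, and 21.9, 11.8, 20.2 and 19.0 CPM in PFHxA a to d. PFHxA b stood below the other 11 libraries by 0.58 on the log2 scale. In that library the table gave NDST2 223 counts, against 311 to 439 in the others, and gave AC022400.5, a gene on the same strand that overlaps it, 97 counts against 27 to 61. The sum of both was 320 in PFHxA b and 339 to 485 elsewhere, so the levels of this overlapping pair are uncertain one by one. The fitted difference of PFHxA from control was -0.03 on the log2 scale and changed sign, to 0.14, without PFHxA b. NDST1 made up 63.6% ± 7.40 of the summed RPKM of NDST1 and NDST2 in control, 59.9% ± 2.11 in PFBA and 74.9% ± 10.6 in PFHxA libraries (SD, n = 4), with 74.4% in control d and 60.0% in PFHxA a. The highest share, 85.2%, was in PFHxA b, the library whose NDST2 level is uncertain.

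GLCE (ENSG00000138604, chr15:69160584-69272217, plus strand) is the C5 epimerase that turns glucuronic into iduronic acid. Its levels were 34.7, 35.9, 35.1 and 38.5 CPM in control a to d, 35.8, 45.4, 34.7 and 45.2 CPM in PFBA a to d and 33.4, 25.7, 33.4 and 34.9 CPM in PFHxA a to d. PFBA b and d were high and PFHxA b was low, and all groups overlapped. The difference of PFHxA from PFBA was -0.34 on the log2 scale (95% interval -0.57 to -0.11, adjusted p = 0.0612). It was -0.24 without PFHxA b and -0.17 with the GC and length trend removed, and it passed the threshold without PFBA c (-0.40, adjusted p = 0.0437) and by DESeq2 (adjusted p = 0.0273).

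HS2ST1 (ENSG00000153936, chr1:86914648-87109998, plus strand), the only 2-O-sulfotransferase of heparan sulfate, acts mainly on iduronic acid. It had 117.1, 122.6, 121.0 and 118.9 CPM in control a to d, 117.2, 122.5, 123.2 and 126.0 CPM in PFBA a to d and 106.6, 108.5, 107.8 and 109.5 CPM in PFHxA a to d. All 4 PFHxA libraries were below all 8 others, and they spread by only 1.21 CPM (SD, n = 4). HS2ST1 fell by 0.15 on the log2 scale against control (95% interval -0.23 to -0.07, adjusted p = 0.0137) and by 0.18 against PFBA (95% interval -0.25 to -0.10, adjusted p = 0.00741), and both calls held in all 12 fits that left out 1 library. HS2ST1 has the lowest transcript GC content of the members. With the GC and length trend removed its difference was -0.00347 against control (adjusted p = 0.980) and 0.0183 against PFBA (adjusted p = 0.896).

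HS6ST1 (ENSG00000136720, chr2:128236716-128318577, minus strand) adds sulfate at the 6-O position of glucosamine and is the most GC-rich member. It had 22.1, 19.3, 24.9 and 21.8 CPM in control a to d, 24.6, 23.1, 23.1 and 20.7 CPM in PFBA a to d and 27.0, 26.7, 26.4 and 24.7 CPM in PFHxA a to d. PFHxA libraries were above all PFBA libraries and above 3 of 4 controls, with PFHxA d just under control c. HS6ST1 rose against control by 0.25 on the log2 scale (95% interval 0.08 to 0.42, 1.19-fold, adjusted p = 0.0483). The call stood only without control c or without PFBA d among the 12 fits that left out 1 library, with adjusted p-values from 0.0196 to 0.121 over all 12. Leaving out any other control, any other PFBA library or any PFHxA library ended it, and after removal of the GC and length trend it measured 0.13 (adjusted p = 0.433).

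HS6ST2 (ENSG00000171004, chrX:132626016-132961395, minus strand), a second 6-O-sulfotransferase, had 33.7, 31.8, 32.8 and 40.1 CPM in control a to d. It had 30.9, 36.5, 28.9 and 32.8 CPM in PFBA a to d and 34.8, 31.2, 27.7 and 33.1 CPM in PFHxA a to d. The groups overlapped, with control d highest. HS6ST1 made up 41.9% ± 3.41 of the summed RPKM of the pair in control, 44.5% ± 3.31 in PFBA and 48.4% ± 2.75 in PFHxA libraries (SD, n = 4), and PFHxA libraries, from 45.8% to 51.9%, overlapped the controls, from 38.1% to 46.2%.

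**Figure D2:**
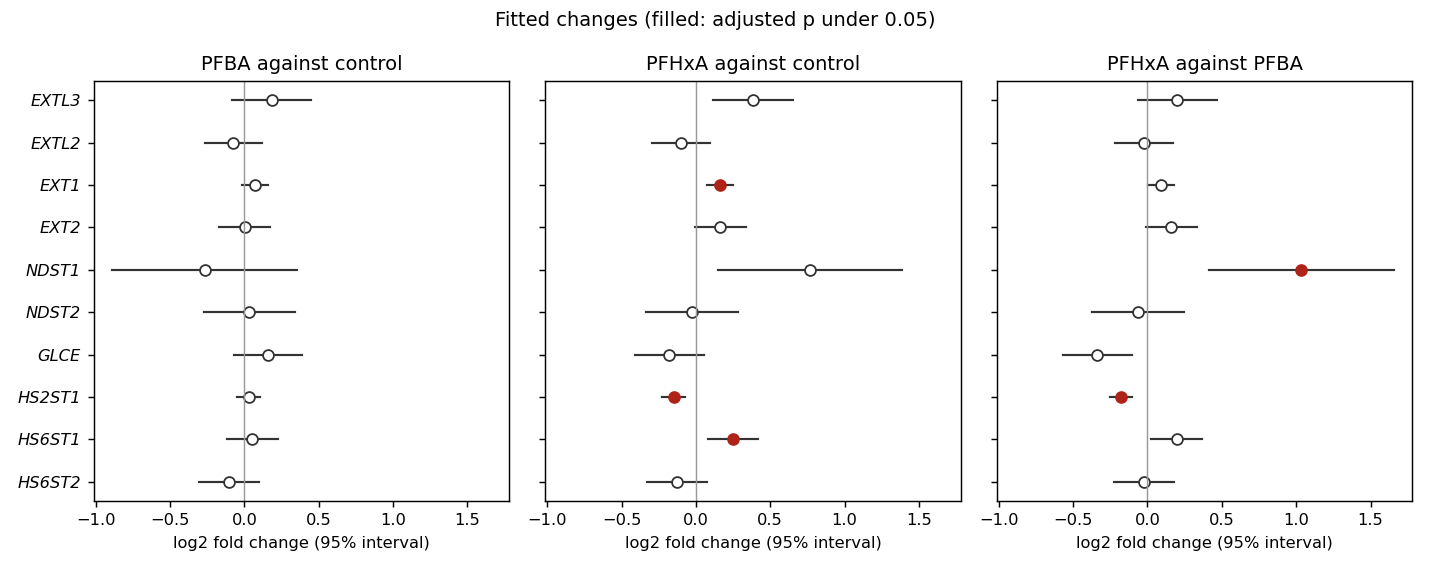
Fitted log2 fold change of each enzyme (horizontal axis) with its 95% interval in the 3 comparisons, 4 libraries a group; filled points have an adjusted p under 0.05. The intervals of NDST1 are the widest, and those of HS2ST1 and EXT1 the narrowest.

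For PFBA against control, edgeR called 0 of the 10 members, where 0.00604% of all tested genes were called. No member had an unadjusted p under 0.05, and limma-voom and DESeq2 also called 0. No member separated PFBA from control libraries without overlap, against 5.96% of all tested genes (3.17% higher, 2.8% lower). The median log2 difference was 0.03 over the members and -0.003 over all genes. The intervals were narrowest for HS2ST1, from -0.05 to 0.10, and EXT1, from -0.02 to 0.16, and widest for NDST1, from -0.89 to 0.35. NDST1's difference of -0.27 became 0.02 without control d.

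For PFHxA against control, 3 of 10 members were called, where 14.9% of all tested genes were called, 6.08% higher and 8.82% lower. Without overlap of libraries, 3 members were higher (EXTL3, EXT1 and EXT2) and 1 lower (HS2ST1), against 20.7% of all tested genes (9.49% higher, 11.2% lower). The members' median was 0.07 and that of all genes -0.004. With the GC and length trend removed, edgeR called 0 of 10 members, 1 having an unadjusted p under 0.05, and called 2.62% of all genes (0.924% higher, 1.69% lower). Without control c and control d, the controls in which EXTL3 or NDST1 stood apart, HS6ST1 alone was called (0.35, adjusted p = 0.0394), and HS2ST1 had -0.14 (adjusted p = 0.0737). Split at a transcript GC content of 45%, 4 of 5 members below it were fitted lower with PFHxA, as were 76.0% of 6048 genes, and 4 of 5 above it were fitted higher, as were 64.1% of 10404 genes. The exceptions were EXT1 below and NDST2 above.

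**Figure D3:**
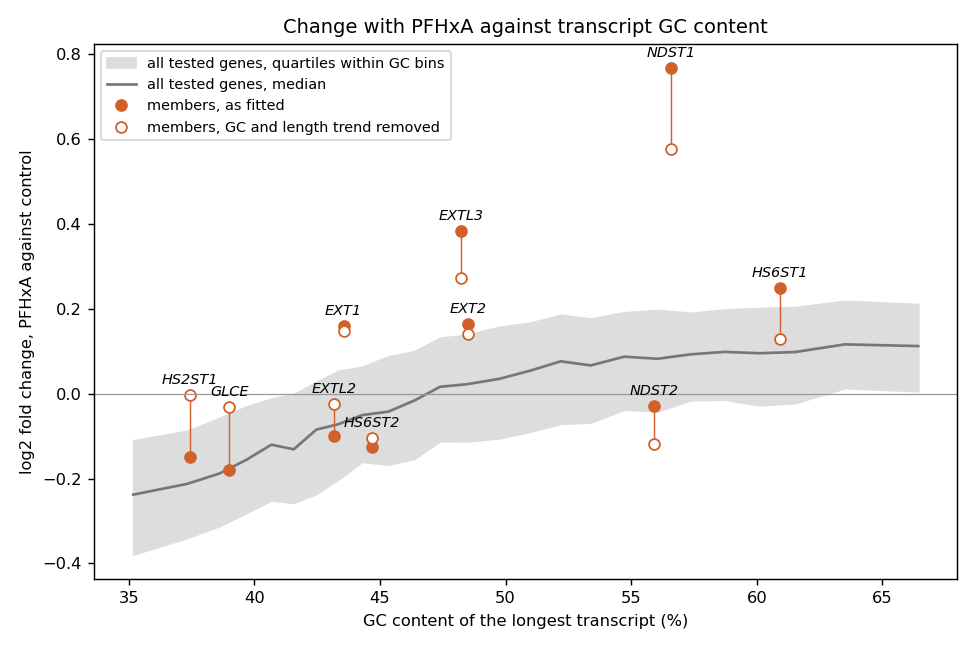
Log2 fold change of PFHxA against control (vertical axis) against GC content of the longest transcript in percent; filled points are members as fitted, open points the same members after removal of each library's trend on GC content and length, and the line and band are the median and quartiles of all tested genes in bins of GC content. HS2ST1 and GLCE lie near the all-gene line and move to about 0, and NDST1 stays far above it.

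The acids were compared with each other at the same dose and time for all 10 members, with p-values adjusted over all tested genes. PFHxA and PFBA differed in 2 of 10 members, NDST1 higher and HS2ST1 lower with the longer acid, where 10.9% of all tested genes were called, 3.84% higher and 7.07% lower. Libraries did not overlap for 4 members that were higher (EXTL3, EXT1, NDST1 and HS6ST1) and 1 that was lower (HS2ST1), against 20.0% of all genes (9.24% higher, 10.8% lower). For the 8 members without a call, the 95% intervals of the log2 difference were -0.07 to 0.47 for EXTL3, -0.22 to 0.17 for EXTL2, 0.00417 to 0.18 for EXT1, -0.01 to 0.33 for EXT2, -0.37 to 0.24 for NDST2, -0.57 to -0.11 for GLCE, 0.03 to 0.36 for HS6ST1 and -0.23 to 0.18 for HS6ST2. The median was 0.03 over the members and 0.005 over all genes. EXTL3, at 0.20 (adjusted p = 0.331), passed the threshold without control c (adjusted p = 0.0453). With the GC and length trend removed, edgeR called 0 members, 2 having an unadjusted p under 0.05, and called 0.876% of all genes (0.217% higher, 0.658% lower).

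The genes most like each called member over the 12 libraries were found by the mean absolute difference of log2 CPM, each gene centred on its own mean. Genes with clone or LINC names were left out. HS2ST1 was followed most closely by GBE1, a glycogen branching enzyme, at 0.0200, and by NECAP1 at 0.0254. EXT1 was followed by AMMECR1L at 0.0239 and PREP at 0.0273, and HS6ST1 by INF2 at 0.0551 and SREBF1 at 0.0552. These distances stand beside small variation: on average HS2ST1 deviated from its own mean by 0.0724, EXT1 by 0.0557 and HS6ST1 by 0.124. NDST1 had no close match: TM9SF4 at 0.294 and BMS1P4 at 0.296 were nearest, while NDST1 itself deviated from its own mean by 0.502 on average. BMS1P4 was scarce, at 0.345 to 1.73 CPM. TM9SF4 was high in control d (124 CPM), PFHxA b (161) and PFHxA c (157) but not in PFHxA d (92.2).

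Other genes of the pathway were taken from lists of 78 symbols, 77 of which were in the table and 66 of which were tested. Against control, edgeR called 0 of the 66 with PFBA, where 8 had an unadjusted p under 0.05 and limma-voom and DESeq2 also called 0. With PFHxA edgeR called 10 of the 66 against control and 7 against PFBA, beside 14.9% and 10.9% of all tested genes, so these counts are near the shares over the whole table. Of 14 core proteins, 3 were called higher with PFHxA against control and none lower, where 6.08% of all tested genes were called higher. The transcripts of these, HSPG2, AGRN and COL18A1, have a GC content of 64.5%, 67.5% and 67.2%. Perlecan (HSPG2), the large heparan sulfate carrier of basement membranes, had 263, 273, 282 and 219 CPM in control a to d and 392, 376, 374 and 365 CPM in PFHxA a to d, a log2 difference of 0.54 (adjusted p = 0.00128). All PFHxA libraries were far above the controls. With the GC and length trend removed HSPG2 was still called, at 0.30 (adjusted p = 0.00701), the one gene of these lists that was. Agrin (AGRN) rose by 0.35 (adjusted p = 0.00113) and collagen XVIII (COL18A1) by 0.22 (adjusted p = 0.0130). Neither was called after removal of the trend, which left 0.13 for AGRN and 0.019 for COL18A1. Against PFBA the core proteins called were HSPG2, AGRN and syndecan-3 (SDC3), all higher with PFHxA, SDC3 by 0.18 (adjusted p = 0.0196). Of all tested genes, 3.84% were called higher in that comparison. None of these core proteins was called against PFBA after removal of the trend. There HSPG2 had 0.18 (adjusted p = 0.0705), AGRN 0.072 (adjusted p = 0.399) and SDC3 0.057 (adjusted p = 0.558).

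Of 17 genes that supply sulfate donor and UDP-sugars, 2 fell with PFHxA in both of its comparisons and none rose, near the shares of all tested genes called lower, 8.82% against control and 7.07% against PFBA. UGP2, which makes UDP-glucose, had 71.8, 70.4, 77.5 and 80.4 CPM in control a to d and 64.5, 65.6, 61.1 and 54.4 CPM in PFHxA a to d, without overlap. It fell by 0.29 on the log2 scale against control (adjusted p = 0.00761) and by 0.33 against PFBA (adjusted p = 0.00477). UAP1, which makes UDP-N-acetylglucosamine, fell by 0.18 (adjusted p = 0.00523) and 0.13 (adjusted p = 0.0348). The transcripts of UGP2 and UAP1 have a GC content of 38.9% and 44.9%.

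Among the 6 tested genes of the linker, B3GALT6, which adds its second galactose, rose with PFHxA against control by 0.19 (adjusted p = 0.00648), and B4GALT7, which adds the first, was higher than with PFBA by 0.47 (adjusted p = 0.0324). Of all tested genes, 6.08% were called higher with PFHxA against control and 3.84% against PFBA. XYLT1 was at 0 in every library, and XYLT2, the other enzyme that starts the linker, had a mean of 51.2 CPM. Of 11 further isoforms of the synthesis enzymes, 3 were tested and 1 was called. The call was for PFHxA against control, where 6.08% of all tested genes were called higher. The 3-O-sulfotransferase HS3ST6 rose there from 3.38 to 4.46 CPM (0.41, adjusted p = 0.0450). Its mean with PFBA was 4.32 CPM, near that with PFHxA, and it was called neither for PFBA against control nor between the acids. NDST3, NDST4, HS3ST2 and HS3ST3A1 had no count in any library, which leaves NDST1 and NDST2 as the detected enzymes of that step.

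After synthesis, SULF2 trims 6-O-sulfates outside the cell. It was the most abundant of its list, in which edgeR and limma-voom called 0 of 3 tested genes with PFHxA against control and DESeq2 called 1, and 1 had an unadjusted p under 0.05. It had means of 99.3, 107 and 113 CPM in control, PFBA and PFHxA libraries (0.19 for PFHxA against control, adjusted p = 0.0604). In the competing chondroitin and dermatan sulfate branch 2 of 15 tested genes rose against control (6.08% of all tested genes did), CHPF2 by 0.44 (adjusted p = 0.0258) and CHST3 by 0.18 (adjusted p = 0.0472), and CHPF was higher than with PFBA by 0.21 (adjusted p = 0.0248). None of the genes in this and the last 2 paragraphs was called after removal of the trend on GC content and length, but their differences moved unequally. Against control, HS3ST6 went to 0.33, CHPF2 to 0.32, UGP2 to -0.12, UAP1 to -0.11, B3GALT6 to 0.085 and CHST3 to 0.013. Against PFBA, B4GALT7 went to 0.37, UGP2 to -0.16, CHPF to 0.079 and UAP1 to -0.064.

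**Figure D4:**
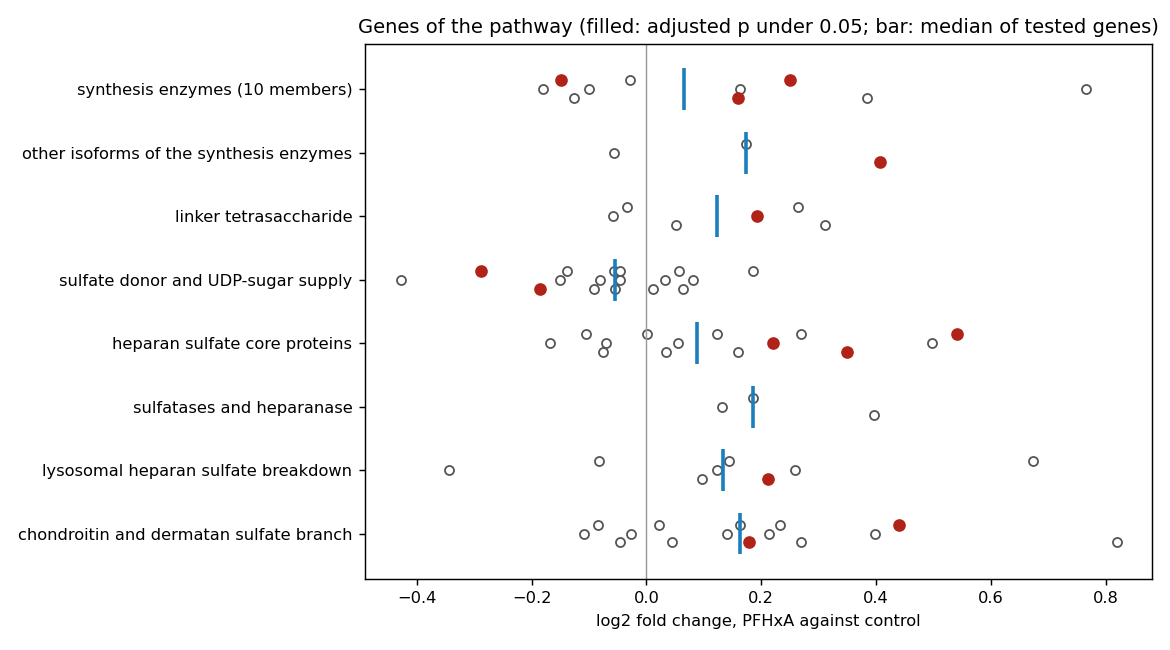
Log2 fold change of PFHxA against control (horizontal axis) for every tested gene of each list; filled points have an adjusted p under 0.05 and the vertical bar is the list's median over tested genes. Called genes are few in each list, and both called genes of the supply list lie below 0.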

How the data were processed

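Gene counts per library were used as the authors deposited them, as whole numbers per gene with no normalization. Reads were aligned with HISAT2 2.0.4 to GRCh38 (hg38), per the submitters' processing notes; no annotation, strandedness or counting program is given in the sources used here. The table's column prefixes give the group but not which of its 4 samples a column is, so the letters a to d pair nothing. A further 12 per-sample columns, of values per length and depth, were not used. Levels between genes were planned on those columns and were instead computed as RPKM from counts and the longest GENCODE 29 transcript; the loci of the 10 enzymes in the table equal those of that release.

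All 3 groups entered 1 edgeR 4.0.16 quasi-likelihood fit in R 4.3.3 (robust, TMM scaling, filterByExpr with a minimum count of 10, two-sided tests, Benjamini-Hochberg over 16554 genes, threshold 0.05). Log2 CPM used a prior count of 2. Each library's trend of log2 level on transcript GC content and length was removed with splines of 5 degrees of freedom as offsets, for an alternative. The fit was also repeated with limma-voom (limma 3.58.1) and DESeq2 1.42.0, with upper-quartile or RLE scaling, with a stricter filter or none, on only the 8 libraries compared, and without each library in turn; the fit without control c and control d and the exon-union length were chosen after seeing the data. The fits were tested on simulated data. The enzymes and all lists were chosen with earlier results of these data known. Of each list other than the enzymes, at most 4 genes with the smallest adjusted p under 0.05 were named, or the most abundant gene where none passed; names beside these (XYLT1, XYLT2, the isoforms at 0, and SDC1) were chosen after their values were seen. Of the list of lysosomal breakdown genes, the result for 1 gene is not reported here.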

Additional observations from a re-analysis of the deposited data

Results flagged for a closer look

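Each of the 10 members was examined in each of the 3 groups. In 4 of these sets of 4 libraries, 1 library lay apart from the other 3 by a Dixon test at the 95% level. EXT2 was 47.8 CPM in control d. NDST1 was 113.3 CPM in control d, above the other controls, and 70.3 CPM in PFHxA a, below the other PFHxA libraries. GLCE was 25.7 CPM in PFHxA b. Chance alone marks about 1 in 20 such sets. Over the 10072 genes with a mean of at least 10 CPM, the share marked was 8.09% in control, 7.11% in PFBA and 7.64% in PFHxA libraries.

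Between the acids at the same dose and time, NDST1 differed by 1.03 and HS2ST1 by -0.18 on the log2 scale (PFHxA minus PFBA). Both had an adjusted p under 0.05 by edgeR's quasi-likelihood test, as did 10.9% of all tested genes. Neither reached that threshold once each library's dependence on GC content and transcript length was taken out. In that edgeR fit NDST1 differed by 0.92 (adjusted p = 0.197) and HS2ST1 by 0.0183 (adjusted p = 0.896). When 1 library was left out, NDST1 passed in 4 of 12 fits and HS2ST1 in 12 of 12.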

How the results depend on the processing

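With PFHxA against control, 3 members were called; RLE and upper-quartile scaling gave 3, no filter 0 (6 with an unadjusted p under 0.05), removal of the GC and length trend 0 (1 unadjusted), only the 8 libraries compared 2, the stricter filter and limma-voom 4 each, DESeq2 5, the fit without control c and control d 1, and leaving out each library 1 to 4. The 1 was HS2ST1, without PFHxA d. With PFHxA against PFBA, 2 were called; no filter gave 1, trend removal 0 (2 unadjusted), limma-voom 1, DESeq2 3, only the 8 libraries compared 3, the fit without control c and control d 3, and leaving out each library 1 to 3. It was 1 without control b, PFBA a, b or d, or PFHxA b, c or d. With PFBA against control every alternative called 0 members. Over all genes DESeq2 called 43, 2823 and 2432 in the 3 comparisons, against 1, 2466 and 1806.

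Of 630 member differences recomputed, 20 changed sign, all for differences that were not called except HS2ST1 with PFHxA against PFBA, which became 0.0183 after trend removal. That removal also turned EXTL2 (0.0617) and HS6ST2 (0.0207) with PFHxA against PFBA, and EXT1 (-0.00353) and HS2ST1 (-0.0218) with PFBA against control. EXT2 with PFBA against control became -0.00379 by limma-voom and -0.0468 without control c and control d. NDST1 with PFBA against control became -0.0164 without both, on the same side as before. Leaving out 1 library gave -0.117 to 0.00424 for EXTL2, -0.0504 to 0.0564 for EXT2, -0.372 to 0.0171 for NDST1 and -0.00424 to 0.118 for HS6ST1 with PFBA against control, -0.128 to 0.138 for NDST2 with PFHxA against control, and -0.0734 to 0.0288 for EXTL2, -0.162 to 0.101 for NDST2 and -0.0747 to 0.0385 for HS6ST2 with PFHxA against PFBA. The cause was not tested. The ratio of the highest to the lowest member in RPKM was 3.50, or 3.93 over the exon union.

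No paired analysis was possible because the columns carry no replicate numbers of the labels. Member counts were 223 to 2961 per library.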

Other observations

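Syndecan-1 (SDC1), the main epithelial heparan sulfate carrier at the cell surface, varied between libraries within groups as NDST1 and EXTL3 did, though not in the libraries where NDST1 stood apart. It had 139, 215, 93.6 and 198 CPM in control a to d, 93.3, 202, 212 and 203 CPM in PFBA a to d, and 221, 229, 231 and 231 CPM in PFHxA a to d. Control c and PFBA a were low and control a was intermediate, whereas the 4 PFHxA libraries lay together above all others. The log2 difference of PFHxA from control was 0.50 (SE 0.297, adjusted p = 0.317 by edgeR's quasi-likelihood test). Control c was also the library in which EXTL3 was low, at 47.3 CPM.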
